A study of Homo sapiens with 8 samples.

Results

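The small nuclear, nucleolar and related RNA genes of the array are described here: genes whose annotated symbol begins with SNORA, SNORD, SCARNA, RNU and a digit, RN7S, SNAR, RNY and a digit, or VTRNA. The rule found 331 probes for 325 genes, out of 20043 genes named by a probe with 1 symbol. By class these were 176 box C/D and 101 H/ACA small nucleolar RNA genes, 24 small Cajal body RNA genes, 13 RNU genes, 4 Y RNA genes, 3 vault RNA genes, 2 genes of the 7SK and 7SL class and 2 small NF90-associated (snaR) RNA genes. All groups were 293T cells, which derive from human embryonic kidney and express the SV40 T antigen, and every group expressed a short hairpin RNA. NCsh cells had a control hairpin, and the other hairpins were aimed at a linker histone (H1.2sh targets H1.2), at a cullin that builds ubiquitin ligases (Cul4Ash targets Cul4A) or at an elongation factor (PAF1sh targets PAF1, which binds RNA polymerase II during transcription). There were 2 bead arrays for each of the 4 groups, 8 in all, and the labels give no other treatment. The labels name 1 hairpin per target and no rescue, so the loss of a target and other effects of its hairpin cannot be told apart. Nor do they name separate cultures for the replicates, and all p-values therefore reflect only how much these arrays varied, which may be technical variation.

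Small nucleolar RNAs guide the chemical modification of ribosomal RNA: the box C/D kind directs methylation of the ribose and the H/ACA kind directs the change of uridine to pseudouridine, and small Cajal body RNAs do the same for the RNAs of the spliceosome. Most of them are cut out of introns of a host gene. A minority, among them the U3 and U13 small nucleolar RNAs and the spliceosomal RNAs, are transcribed from promoters of their own. The enzyme is RNA polymerase II or, for U6, U6atac, 7SK, 7SL, Y and snaR RNAs, RNA polymerase III. The 7SK RNA holds the elongation kinase P-TEFb in an inactive complex, 7SL is the RNA of the signal recognition particle, and Y RNAs bind the Ro protein. Mature RNAs of these classes mostly lack a poly(A) tail, on which the priming step of such labelling kits commonly relies. Whether a probe read the mature RNA, a precursor or a tailed form was not tested.

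Deposited intensities had a median of 82.8 to 88.7 per array, with 39.2% to 42.5% of the probes detected (detection p under 0.05). After quantile normalization, arrays of a group correlated at 0.996 over 12300 genes, and arrays of different groups at 0.973 to 0.989. The number of arrays limits the precision. Each targeted gene was lowest in its own group, with changes of -1.11 for H1-2 in H1.2sh, -1.51 for CUL4A in Cul4Ash and -2.58 for PAF1 in PAF1sh on the log2 scale. Of 7 genes listed as markers of 293T cells 6 were detected, at 117 to 6916. Of the markers of other cell types with a probe, 0 of 3 endothelial, 1 of 3 leukocyte, 2 of 2 erythroid, 3 of 3 hepatocyte and 3 of 3 fibroblast genes were detected, and the brightest of these, ALB, read 164. In the scanner table, the column carrying the name of H1.2sh replicate 2 holds what the authors' deposited matrix gives for Cul4Ash replicate 2, and the column carrying the name of Cul4Ash replicate 2 holds PAF1sh replicate 2 of the matrix. Groups were taken from the matrix, and 5 scanner arrays have an undisputed name.

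On both NCsh arrays the detection p fell as the scanner signal rose, with 1 step the other way on each, and 0 probes had a p more than 0.05 from the running median p of the 101 probes nearest to them in signal. On the 3 depletion arrays with an undisputed name, 48 probes departed by more than that in Cul4Ash, 33 in H1.2sh and 7 in PAF1sh, at most 0.102% of those measured, most of them with a signal lower than their p. Of the small RNA genes, RNU4-1, RNU4-2 and RNY4 departed, on the Cul4Ash array and on no other of the 5. This comparison can show nothing about bright probes, whose p is 0 over a wide range of signal. The cause was not tested, and the values of these 3 genes in Cul4Ash carry this limit.

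Of the 325 genes, 159 had a probe detected on at least 2 of the 7 scanner arrays with values and were tested, and 113 were detected on all 7. Over probes, 49.2% of the small RNA probes passed this filter, against 54.3% of the other probes with 1 gene symbol. All 4 Y RNA genes, both genes of the 7SK and 7SL class, 10 of 13 RNU genes, 16 of 24 small Cajal body genes, 63 of 101 H/ACA genes and 63 of 176 box C/D genes passed. The 3 vault RNA genes did not pass: VTRNA1-1, VTRNA1-2 and VTRNA2-1 were detected on 0 arrays. Among the box C/D genes, 30 of 31 copies of SNORD113 to SNORD116, which lie in the imprinted gene clusters known for tissue-restricted expression, did not pass, and the exception was SNORD114-2. Of the other box C/D genes 62 of 145 passed.

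Most tested members were dim. Their median intensity was 130, against 242 for all tested genes, and fold changes of probes near background understate the change in RNA. The brightest of its class was RN7SL1 (14067) among 7SK and 7SL, SNAR-A1 (6547) among snaR genes, RNU6-1, a U6 gene (2756), among RNU genes, and SNORA61 (1355) among H/ACA genes. In the other classes the brightest were SCARNA10 (447), SNORD3A (358) and RNY3 (195). Levels of different probes depend on the probe and were not compared further.

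In PAF1sh, 35 of the 159 tested small RNA genes rose and 13 fell, while 19% of all 12300 genes tested rose and 19.9% fell. The share of small RNA genes called in either direction was thus 48 of 159, below the 38.9% of all genes. The median log2 change was 0.08 for the small RNA genes and 0.00 for all genes. Among the 113 members detected on all 7 scanner arrays, 27 rose and 13 fell, with a median of 0.05. All calls among the less often detected members were thus rises. Such members can pass the filter through the arrays where they are high. Of the called genes, SNORA2C and SNORD84 were above background on 0 of 2 NCsh arrays. SNORD95, SNORA74B, SCARNA4 and SCARNA23 were above it on 1 of 2. By class, 12 box C/D genes rose and 4 fell, 8 H/ACA genes rose and 9 fell, 6 small Cajal body genes rose and 0 fell, and 7 of the 10 RNU genes rose and 0 fell. RN7SK and SNAR-A1 also rose, and no Y RNA gene was called, with 3 of the 4 at an unadjusted p under 0.05. Of the 48 calls, 38 held under both other scalings and with each array left out in turn. The other 10 were SNORA25, SNORA61, SNORA67, SNORA71A, SNORA74B, SNORA79, SNORA80E, SNORA84, SNORD4A and SNORD14D. Changes below are log2 changes, each ± its standard error in limma's fit (n = 2).

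**Figure D1:**
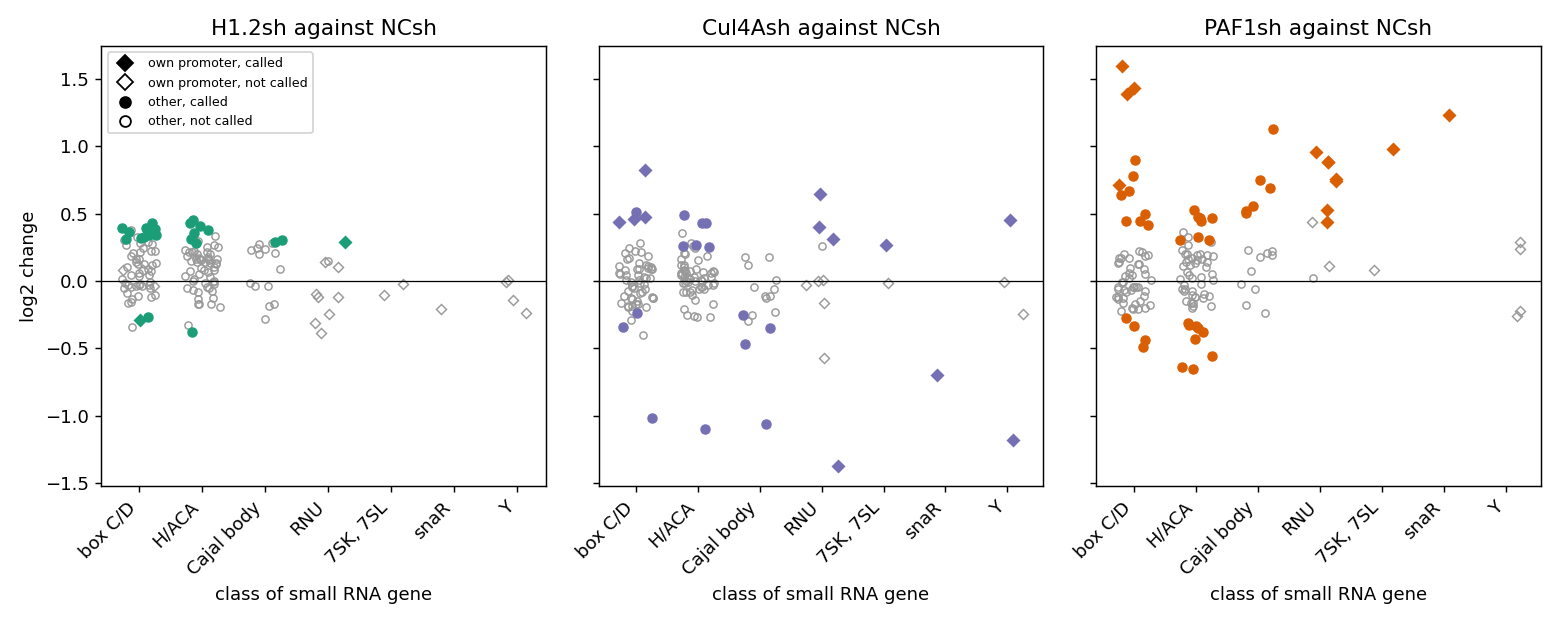
Log2 change of each tested small RNA gene against NCsh (vertical axis) by class (horizontal axis) in the 3 depletions; filled symbols passed an adjusted p of 0.05, and diamonds mark genes with a promoter of their own. In PAF1sh the diamonds, a grouping made after the values were seen, reach 1.60 and none is called lower. Called changes in H1.2sh stay within 0.45 of zero.

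The highest changes in PAF1sh were those of U3, the box C/D RNA that is needed to cut the precursor of 18S ribosomal RNA. SNORD3A read 234 and 231 on the NCsh arrays, 224 and 271 on the H1.2sh arrays, 331 and 316 on the Cul4Ash arrays and 626 and 633 on the PAF1sh arrays. SNORD3D read 171 and 215 in NCsh, 196 and 209 in H1.2sh, 251 and 277 in Cul4Ash and 592 and 569.6 in PAF1sh. Both PAF1sh arrays stood above the other 6 for each gene, and the Cul4Ash arrays lay between PAF1sh and the rest. The change in PAF1sh was 1.44 ± 0.09 (adjusted p = 4.26e-06) for SNORD3A, 1.60 ± 0.11 for SNORD3D and 1.39 ± 0.09 for SNORD3C. In Cul4Ash the same genes rose by 0.48 ± 0.09, 0.46 ± 0.11 and 0.44 ± 0.09, and Cul4Ash was lower than PAF1sh by 0.96, 1.14 and 0.95 (adjusted p = 3.62e-05, 3.05e-05 and 3.62e-05). The SNORD3C and SNORD3D calls in Cul4Ash each missed the threshold when 1 of 2 arrays was left out (adjusted p = 0.0662 for SNORD3C without Cul4Ash replicate 1 and 0.0641 without NCsh replicate 2, and 0.0882 for SNORD3D without Cul4Ash replicate 2 and 0.104 without NCsh replicate 1). In H1.2sh the changes of SNORD3A, SNORD3D and SNORD3C were 0.08, 0.08 and -0.04, none of them called. U3 genes are near-identical copies whose probes may read the same RNA, and they do not count as separate observations.

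U13 (SNORD13), which takes part in the acetylation of 18S ribosomal RNA, read 145 and 153 in NCsh, 128 and 117 in H1.2sh, 267 and 259 in Cul4Ash and 253 and 236 in PAF1sh. The Cul4Ash and PAF1sh arrays stood above all others, and the H1.2sh arrays were the lowest. Its changes were 0.82 ± 0.08 in Cul4Ash (adjusted p = 0.000106), 0.71 ± 0.08 in PAF1sh (adjusted p = 9.06e-05) and -0.29 ± 0.08 in H1.2sh (adjusted p = 0.0407). Cul4Ash and PAF1sh differed by 0.11 ± 0.08, which did not pass (adjusted p = 0.327).

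Among spliceosomal RNAs, the U1 genes, whose RNA recognises the start of introns, were called in PAF1sh. RNU1-1 read 359 and 362 in NCsh, 332 and 333 in H1.2sh, 370.3 and 355 in Cul4Ash and 674 and 656 in PAF1sh. RNU1-3 read 439.9 and 479.7 in NCsh, 372 and 370.3 in H1.2sh, 452 and 373 in Cul4Ash and 871 and 910.5 in PAF1sh. The PAF1sh arrays stood above the other 6 for both genes. The changes there were 0.88 ± 0.07 (adjusted p = 1.16e-05) and 0.95 ± 0.10 (adjusted p = 4.8e-05), and RNU1-1 lay 0.88 ± 0.07 lower in Cul4Ash than in PAF1sh (adjusted p = 1.2e-05), and RNU1-3 differed between H1.2sh and PAF1sh by -1.26 ± 0.10 (adjusted p = 8.96e-06). U1 genes are near-identical copies too.

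The minor spliceosome, which removes a rare class of introns, is represented by RNU11, RNU4ATAC and RNU6ATAC. RNU4ATAC read 151 and 159.7 in NCsh, 129 and 133 in H1.2sh, 248 and 239 in Cul4Ash and 257 and 264 in PAF1sh. It rose by 0.65 ± 0.07 in Cul4Ash (adjusted p = 0.000259) and by 0.75 ± 0.07 in PAF1sh (adjusted p = 3.92e-05), and the difference between these depletions, -0.10 ± 0.07, did not pass (adjusted p = 0.323). As for U13, the arrays of both depletions lay above all arrays of NCsh and H1.2sh. RNU11 rose by 0.40 ± 0.10 in Cul4Ash, where its arrays read 173 and 138, and by 0.76 ± 0.10 in PAF1sh, where they read 199.6 and 195, against 114 and 119 in NCsh. Another RNU11 probe gave 0.50 and 0.85. RNU6ATAC rose in PAF1sh, by 0.88 ± 0.12 with its brighter probe (188 and 214, against 94.8 and 125 in NCsh) and by 0.74 ± 0.10 with its other probe, while in Cul4Ash its change was -0.00 ± 0.12, and Cul4Ash lay below PAF1sh by 0.88 ± 0.12 (log2 change -0.88, adjusted p = 0.000262). The RNU11 rise in Cul4Ash was not called without Cul4Ash replicate 1 or without either NCsh array.

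Genes of U6 and U5 RNAs of the major spliceosome were also measured. RNU6-1, a gene of U6, the RNA at the catalytic centre, read 2376 and 2457 in NCsh, 2891 and 3012 in H1.2sh, 2449 and 2292 in Cul4Ash and 3415 and 3153 in PAF1sh. It rose by 0.44 ± 0.08 in PAF1sh and by 0.29 ± 0.08 in H1.2sh, where it was not called under either other scaling between arrays (median scaling and no normalization). U6 has many near-identical copies and pseudogenes. RNU5A-1 rose by 0.31 ± 0.09 in Cul4Ash, from 88.4 and 91.0 in NCsh to 114 and 109, and was not called in PAF1sh at 0.11 ± 0.09. Its rise in Cul4Ash was not called under either other scaling, nor with any Cul4Ash or NCsh array left out. RNU2-1 and RNU5D-1, whose RNAs belong to the same spliceosome, were detected on 0 arrays.

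RN7SK read 268 and 285 in NCsh, 253 and 264 in H1.2sh, 334 and 333 in Cul4Ash and 546 and 546 in PAF1sh. The arrays of PAF1sh were the highest, followed by those of Cul4Ash. Its change was 0.98 ± 0.07 in PAF1sh (adjusted p = 7.86e-06) and 0.27 ± 0.07 in Cul4Ash (adjusted p = 0.0276), and Cul4Ash lay 0.71 ± 0.07 below PAF1sh (adjusted p = 5.02e-05). A dimmer RN7SK probe, detected on 3 arrays, gave 0.37 ± 0.08 in PAF1sh (adjusted p = 0.00422, over kept probes) and 0.03 ± 0.08 in Cul4Ash, so the size depends on the probe. The rise in Cul4Ash was not called under either other scaling between arrays. RN7SL1 was not called: it read 13859 and 13997 in NCsh and 14344 and 15206 in PAF1sh, with a change of 0.08 ± 0.07.

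SNAR-A1, whose RNA binds the double-stranded RNA-binding protein NF90, had the largest gap between depletions. It read 5761 and 5070.1 in NCsh, 4114 and 5320.4 in H1.2sh, 3835 and 2902 in Cul4Ash and 12438 and 12938 in PAF1sh. Both PAF1sh arrays were above and both Cul4Ash arrays below every other array. The changes were 1.23 ± 0.15 in PAF1sh (adjusted p = 0.000116) and -0.70 ± 0.15 in Cul4Ash (adjusted p = 0.00845), and the depletions differed by 1.93 ± 0.15 (log2 change of Cul4Ash against PAF1sh -1.93, adjusted p = 7.61e-06). The fall in Cul4Ash was not called without Cul4Ash replicate 2 (adjusted p = 0.0583) or without NCsh replicate 1 (adjusted p = 0.0624). The snaR genes are a family of near-identical copies. SNAR-I was detected on 0 arrays.

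**Figure D2:**
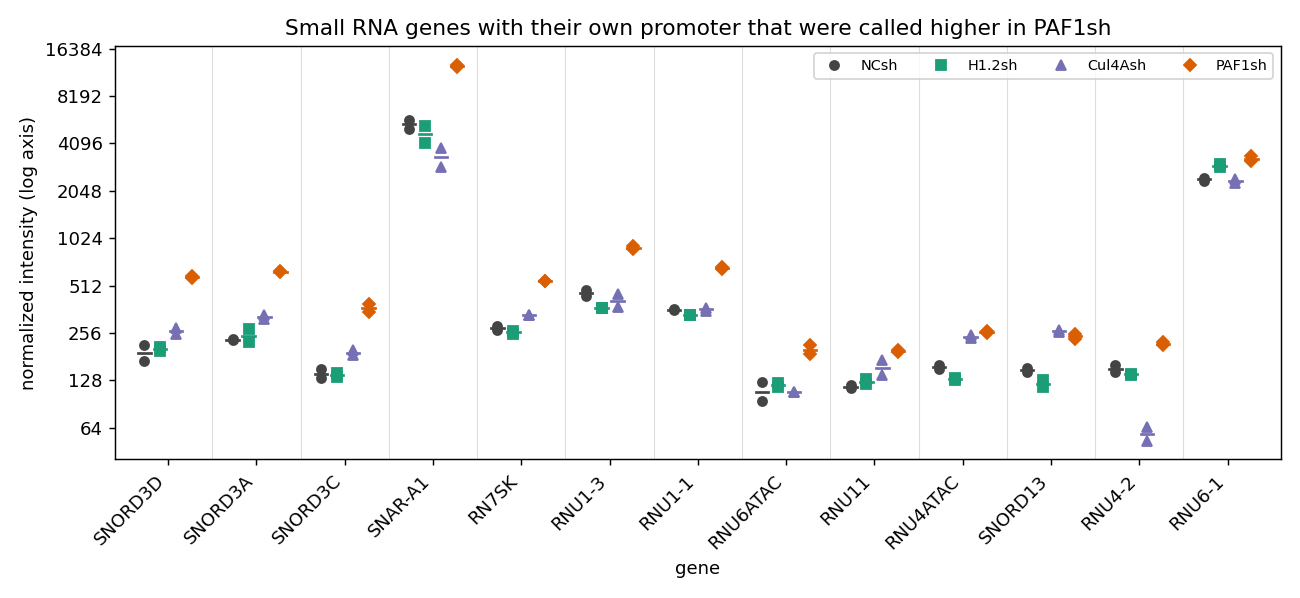
Normalized intensity (log axis) of the 13 genes with a promoter of their own that were called higher in PAF1sh, with 1 symbol per array, 2 arrays per group, and a bar at the mean of the log2 values. The genes were drawn because they were called higher in PAF1sh, so PAF1sh arrays above both NCsh arrays reflect that selection. For RNU4ATAC and SNORD13 the Cul4Ash arrays lie beside those of PAF1sh.

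The genes of the preceding paragraphs have in common, from textbook knowledge, a promoter of their own. This grouping was made after the values had been seen and is given as a description. It holds 20 tested genes, of which 13 rose and 0 fell in PAF1sh, with a median change of 0.73. Of all 12300 genes tested, 19% rose and 19.9% fell there, 11% and 9.6% in Cul4Ash, and 7.28% and 8.15% in H1.2sh. The group includes near-identical copies of U3, U1 and U4 genes, which do not count as separate observations. Because its genes had been seen to rise, its counts and medians are not a test of the promoter. The other 139 small RNA genes, most of them within introns, gave 22 that rose and 13 that fell, with a median of 0.04. Of the 11 genes in the group assigned to RNA polymerase II 9 rose in PAF1sh, and of the 9 assigned to RNA polymerase III 4 rose. In Cul4Ash 9 of the 20 rose and 3 fell, with a median of 0.00 (-0.05 with median scaling, 0.12 without Cul4Ash replicate 2, 0.10 without NCsh replicate 2 and 0.24 with neqc background correction on 5 arrays), and in H1.2sh 1 rose (RNU6-1) and 1 fell (SNORD13). Each of the 3 falls in Cul4Ash has a limit: RNU4-2 and RNY4 that of their signal and detection p, and SNAR-A1 a call lost without Cul4Ash replicate 2 or NCsh replicate 1. The count in PAF1sh was 13 to 14 genes under the alternative settings that used all 8 arrays, and 16 of 23 probes with every kept probe on its own. It was lower with neqc on 5 arrays, where PAF1sh has 1 array. The count in Cul4Ash dropped from 9 to 4 without NCsh replicate 1, to 5 without NCsh replicate 2, to 4 without Cul4Ash replicate 1 and to 6 without Cul4Ash replicate 2. The 3 comparisons share the NCsh arrays.

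Of 16 small Cajal body RNA genes, none of them in that group, 6 rose in PAF1sh and 10 were not called, beside 38.9% of all genes called in either direction. SCARNA8 read 257 and 244 in NCsh, 269 and 327 in H1.2sh, 179.6 and 184 in Cul4Ash and 625 and 483 in PAF1sh. The PAF1sh arrays were the highest and the Cul4Ash arrays the lowest, with changes of 1.13 ± 0.13 (adjusted p = 7.73e-05) and -0.47 ± 0.13 (adjusted p = 0.0262) and a difference of -1.60 ± 0.13 for Cul4Ash against PAF1sh (adjusted p = 9.32e-06). SCARNA11 showed the same order, with a rise of 0.75 ± 0.09 in PAF1sh and a fall in Cul4Ash, where it was not well above background and which was therefore at least 1.27-fold lower than NCsh. The fall of SCARNA8 was not called without any 1 of the Cul4Ash or NCsh arrays (adjusted p = 0.0654 to 0.119), nor that of SCARNA11 without Cul4Ash replicate 2 or NCsh replicate 2. SCARNA14 rose by 0.69 ± 0.09, SCARNA4 by 0.56 ± 0.09, SCARNA18 by 0.52 ± 0.08 and SCARNA23 by 0.51 ± 0.09. SCARNA4 and SCARNA23 were above background on only 1 of 2 NCsh arrays. SCARNA4 was also not above background on the H1.2sh and Cul4Ash arrays with an undisputed name. It may thus have passed the filter through PAF1sh, where it was high.

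Among box C/D genes without a promoter of their own, SNORD84 was not well above background in NCsh (86.0 and 75.3) and read 151 and 149.7 in PAF1sh, which makes it at least 1.87-fold higher (adjusted p = 4.47e-05; such bounds rest on the means and allow for no spread). SNORD43 rose by 0.78 ± 0.11, SNORD99 by 0.67 ± 0.08 and SNORD89 by 0.64 ± 0.11. The called falls in this class were those of SNORD36A (-0.49 ± 0.10), SNORD96A (-0.43 ± 0.09), SNORD4A (-0.33 ± 0.09) and SNORD14D (-0.27 ± 0.08).

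Of the 63 H/ACA genes, 8 rose and 9 fell in PAF1sh, beside 19% and 19.9% of all genes tested, which were likewise near balance. SNORA64 read 391 and 431 in NCsh, 415 and 400.2 in H1.2sh, 492 and 428 in Cul4Ash and 255 and 267 in PAF1sh. Both PAF1sh arrays were below the other 6, with a change of -0.65 ± 0.09 (adjusted p = 0.000307). SNORA59A fell by 0.64 ± 0.11, from 357 and 301 in NCsh to 233 and 190.2, and SNORA11D fell by 0.55 ± 0.11, from 215 and 168 to 131 and 129. SNORA18, SNORA3A, SNORA77, SNORA67, SNORA25 and SNORA71A fell by between 0.43 and 0.31. The rises in this class ran from 0.30 for SNORA79 to 0.53 for SNORA63.

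In Cul4Ash, 16 small RNA genes rose and 11 fell, beside 11% and 9.6% of all genes and 20.6% in either direction. The median change was 0.01 for the small RNA genes and 0.00 for all genes. With median scaling the counts were 11 and 13, which shifts the balance, and without normalization 11 and 8. Under both other scalings and with each array left out in turn, 10 of the 27 calls held: the falls of SNORA12, SCARNA13, SNORD17 and, with the limit stated above for their Cul4Ash values, RNU4-2 and RNY4, and the rises of SNORD3A, SNORD13, SNORD16, RNU4ATAC and SNORA67. The other 17, among them SNORD3C, SNORD3D, SNAR-A1, RNU11 and SCARNA8, were lost when at least 1 array was left out, and 9 of them, RN7SK and RNU5A-1 included, also under a scaling. By class, 5 box C/D genes rose and 3 fell, 6 H/ACA genes rose and 1 fell, and 4 small Cajal body genes fell and 0 rose. Of the RNU genes 3 rose and 1 fell, and of the Y RNA genes 1 rose and 1 fell.

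With quantile normalization, intron-encoded guide RNA genes from 3 classes had falls of similar size. SNORA12 read 626 and 522 in NCsh, 448 and 429 in H1.2sh, 266 and 268 in Cul4Ash and 688 and 627 in PAF1sh. SCARNA13 read 427 and 366 in NCsh, 463 and 495 in H1.2sh, 187 and 191 in Cul4Ash and 484 and 439.9 in PAF1sh. SNORD17 read 238 and 182 in NCsh, 250.5 and 291 in H1.2sh, 102 and 104 in Cul4Ash and 175 and 182 in PAF1sh. For each of them both Cul4Ash arrays lay below the other 6. The changes in Cul4Ash were -1.10 ± 0.10 for SNORA12, -1.06 ± 0.09 for SCARNA13 (adjusted p = 5.64e-05 for both) and -1.01 ± 0.12 for SNORD17 (adjusted p = 0.000328). Across the alternatives they ranged from -1.29 to -0.97 for SNORA12, -1.40 to -0.95 for SCARNA13 and -1.87 to -0.82 for SNORD17, so the similar size depends on the processing. In H1.2sh SNORA12 fell by 0.38 ± 0.10 (adjusted p = 0.0257), whereas SCARNA13 and SNORD17 had changes of 0.28 ± 0.09 and 0.38 ± 0.12 that were not called. All 3 genes differed between Cul4Ash and each of the other depletions (highest adjusted p = 0.000653).

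The lowest fitted changes in Cul4Ash were those of RNU4-2, a U4 gene, and RNY4, and they belong to the probes whose signal and detection p disagreed. RNU4-2 read 144 and 159.6 in NCsh, 139 and 141 in H1.2sh, 53.1 and 64.9 in Cul4Ash and 224 and 215 in PAF1sh. RNY4 read 154 and 172 in NCsh, 132 and 166 in H1.2sh, 61.3 and 84.5 in Cul4Ash and 137 and 142 in PAF1sh. The Cul4Ash arrays were the lowest for both genes, with fitted changes of -1.37 ± 0.10 (adjusted p = 2.42e-05) and -1.18 ± 0.15 (adjusted p = 0.000452). On Cul4Ash replicate 1, however, the RNU4-2 scanner signal was 95.2 with a detection p of 0.0221, and the other probes with that p had a median signal of 150.2. For RNY4 on that array the signal was 111 with a p of 0.0039, and the median signal of the other probes with that p was 167. Both probes thus passed as detected at a signal where most probes did not: the running median p was 1 at the signal of RNU4-2 and 0.878 at that of RNY4. Taken by signal they were not above background on that array, and the size of the fall is then only a bound. It is at least 2.05-fold for RNU4-2 and at least 2.02-fold for RNY4 below NCsh, against a floor from probes detected by both signal and p. Cul4Ash replicate 2 has no undisputed detection p and could not be checked in this way. The floor assumed for it was 70.9, and RNU4-2 lay below it at 64.9 but RNY4 above it at 84.5. The other 9 genes that fell in Cul4Ash did not depart in this way, although bright ones could not be checked.

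RNU4-1, the near-identical copy, read 138 and 51.0 on the Cul4Ash arrays, against 119 and 130.5 in NCsh, and was not called in any depletion. On the first of these arrays its scanner signal was 186 with a detection p of 0.19, where other probes of that p had a median signal of 136. In PAF1sh RNU4-2 rose by 0.53 ± 0.10 (adjusted p = 0.00208), where no departure was seen, and RNU4-1 had a change of 0.44 ± 0.33. Among Y RNA genes RNY5 rose in Cul4Ash by 0.46 ± 0.10, from 111 and 138 to 172 and 167, and RNY1 and RNY3 were not called in any depletion, with changes from -0.26 to 0.29.

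**Figure D3:**
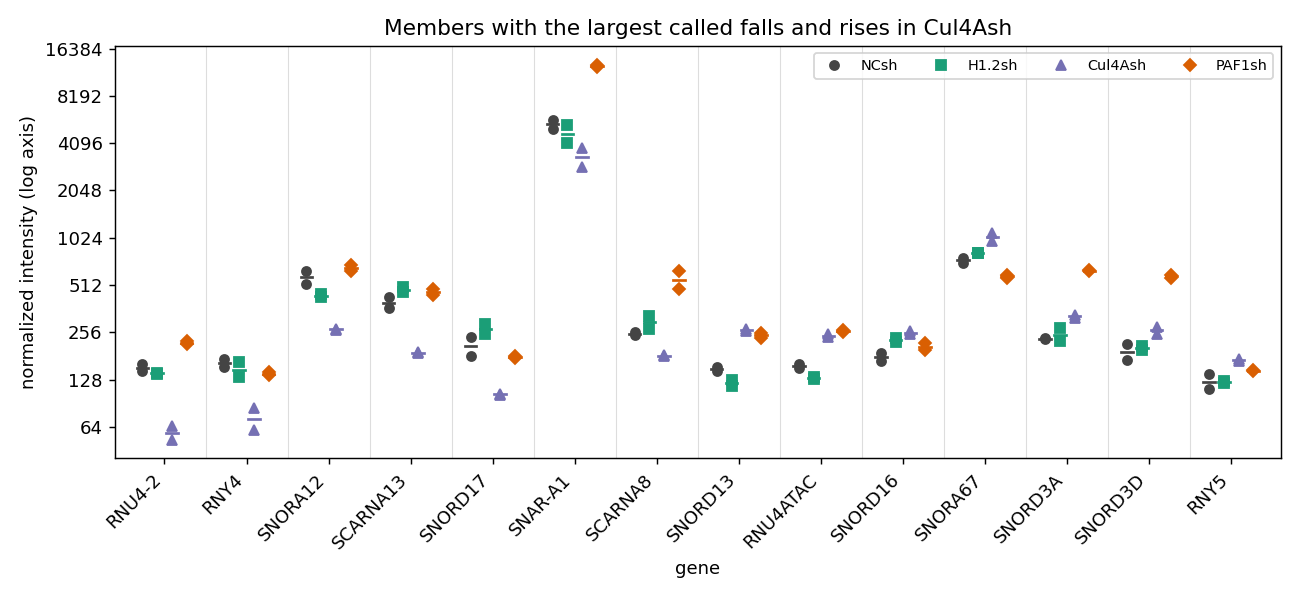
Normalized intensity (log axis) of the 7 small RNA genes with the lowest and the 7 with the highest called change in Cul4Ash, with 1 symbol per array and a bar at the mean of the log2 values. The Cul4Ash arrays of SNORA12, SCARNA13 and SNORD17 lie below all others; RNU4-2 and RNY4 are the probes whose Cul4Ash signal and detection p disagreed.

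Of the rises in Cul4Ash beyond those of U3, U13, U11 and U4atac genes, SNORD16 had the largest, 0.51 ± 0.09. SNORA67 read 709 and 761 in NCsh, 814 and 813 in H1.2sh, 1099.9 and 973 in Cul4Ash and 596 and 569 in PAF1sh. It rose in Cul4Ash by 0.49 ± 0.08 and fell in PAF1sh by 0.34 ± 0.08, and the depletions differed by 0.83 ± 0.08 (adjusted p = 4.47e-05). The fall was not called without NCsh replicate 2 or PAF1sh replicate 2 (adjusted p = 0.0673 and 0.0574). SNORA80E and SNORA41 rose by 0.43 each. The remaining called falls, of SNORD49A, SNORD110 and SCARNA18, were between 0.34 and 0.24.

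In H1.2sh, 20 small RNA genes rose and 3 fell, where 7.28% of all genes rose, 8.15% fell and 15.4% were called in either direction. The changes were small, from -0.38 for the lowest called gene to 0.45 for the highest, and the median was 0.10 for the small RNA genes and -0.01 for all genes. The rises depended on the scaling: with median scaling 1 gene rose and 5 fell, and without normalization 0 rose and 5 fell, with 27 and 15 members at an unadjusted p under 0.05. Without H1.2sh replicate 1 the counts were 1 and 0, and without NCsh replicate 1 they were 2 and 0. Under these settings the direction of all 23 genes remained, and the calls of SNORA12 and SNORD13, which fell, remained with either other scaling. Each of the 23 calls was lost when at least 1 array was left out.

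By class, 10 box C/D, 7 H/ACA and 2 small Cajal body genes rose with quantile normalization. SNORA70 read 615 and 687 in NCsh and 896 and 885 in H1.2sh, a change of 0.45 ± 0.09 (adjusted p = 0.00784). SNORA61 read 1085 and 1192 in NCsh, 1534 and 1479 in H1.2sh, 1366 and 1372 in Cul4Ash and 1399 and 1410.4 in PAF1sh. Its NCsh arrays were the lowest of the 8, and its changes of 0.41, 0.27 and 0.31 were called in every depletion, with no call left under either other scaling. SNORA3B and SNORD89 rose by 0.43, SNORD96A by 0.40, and SNORD104 and SNORD68 by 0.39. SNORD96A fell in PAF1sh, and H1.2sh and PAF1sh differed for it by 0.83 ± 0.09 (adjusted p = 4.71e-05).

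**Figure D4:**
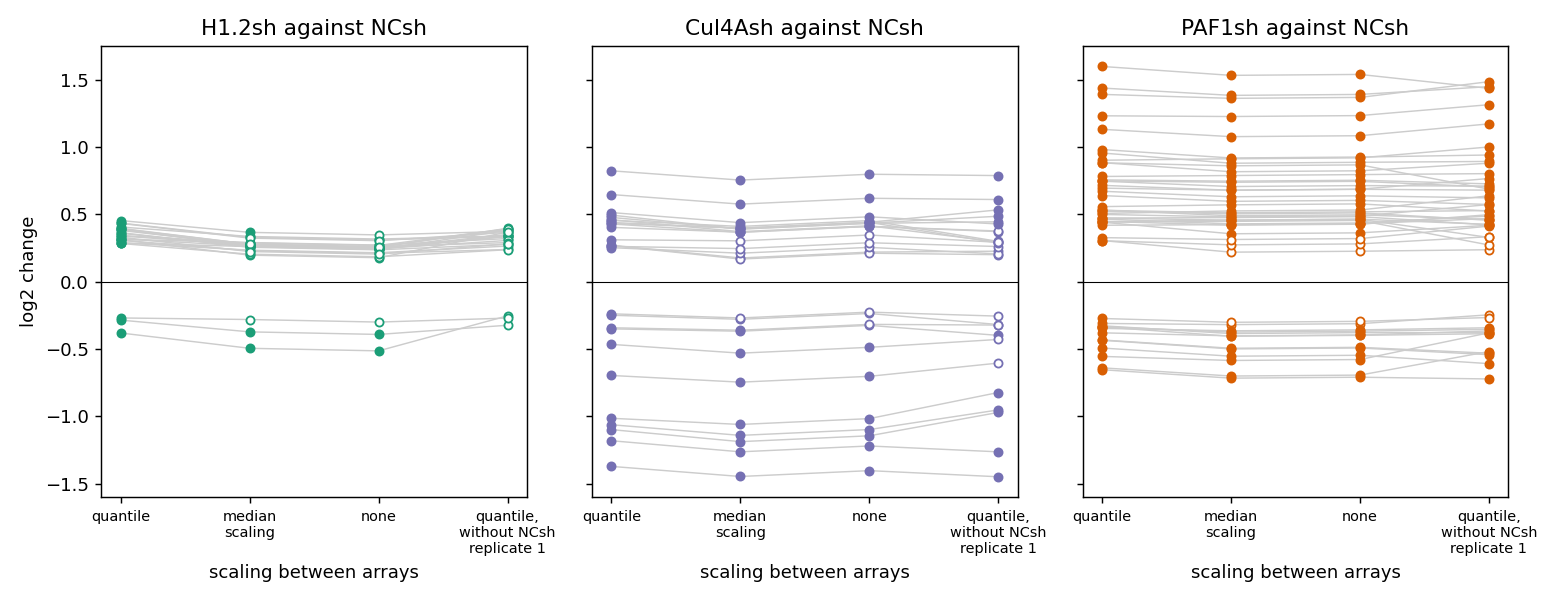
Log2 change against NCsh (vertical axis) of every small RNA gene called with quantile normalization, under 3 scalings between arrays and without NCsh replicate 1 (horizontal axis); lines join a gene, and filled symbols passed an adjusted p of 0.05. In H1.2sh nearly all filled symbols turn open, while in PAF1sh 43 of 48 calls remain under median scaling.

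Across the 3 comparisons with NCsh, 71 of the 159 genes were called at least once, 47 of them in 1 comparison, 21 in 2 and 3 in all, namely SNORA61, SNORD13 and SCARNA18. Among all 12300 genes, PAF1sh had 38.9% called against NCsh, Cul4Ash had 20.6% and H1.2sh had 15.4%. How many of all genes were called at least once was not computed, so nothing particular to small RNA genes is read from the 71. Set directly against each other, H1.2sh was higher than Cul4Ash for 26 small RNA genes and lower for 12, beside 10.2% and 12.4% of all genes and 22.6% in either direction. It was higher than PAF1sh for 33 and lower for 30, beside 19.8%, 20.4% and 40.2% of all genes. Cul4Ash was higher than PAF1sh for 19 and lower for 43, beside 21.2%, 19.8% and 41% of all genes. Among the 20 genes with a promoter of their own, a group made after the values were seen, 14 were lower in Cul4Ash than in PAF1sh and 0 were higher. Of the 16 small Cajal body genes 8 were lower in Cul4Ash than in PAF1sh and 0 were higher.

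For 113 of the tested genes a single measured gene spans their position in the RefSeq annotation of GRCh38.p14, with the strand not checked, and these 81 spanning genes were taken as likely hosts. The change of the small RNA gene and that of its spanning gene had a Pearson correlation of 0.07 for H1.2sh, 0.09 for Cul4Ash and 0.08 for PAF1sh over these 113 genes, which share arrays, and often a host. Beside the host counts that follow, 20.6% of all genes were called in Cul4Ash, 38.9% in PAF1sh and 15.4% in H1.2sh. In Cul4Ash the spanning gene was called in the same direction for 0 of 11 called members: SNORA12 lies in CWF19L1, which changed by -0.15 ± 0.08, and SNORD17 in SNX5, which changed by -0.23 ± 0.09, neither called. In PAF1sh 9 of 29 called members had a host called in the same direction and 1 in the opposite one. Those 9 include SNORD99 and SNORA61 in SNHG12 (0.30 ± 0.09), SCARNA4 and SNORA80E in KHDC4 (0.30 ± 0.09), SNORA59A in VPS13D (-0.36 ± 0.09) and SNORD4A in RPL23A (-0.52 ± 0.08). In H1.2sh 1 of 14 did, SNORD68 in RPL13 (0.48 ± 0.07). RPS2, which spans SNORA64, changed by 0.10 ± 0.08 in PAF1sh, while SNORA64 fell.

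**Figure D5:**
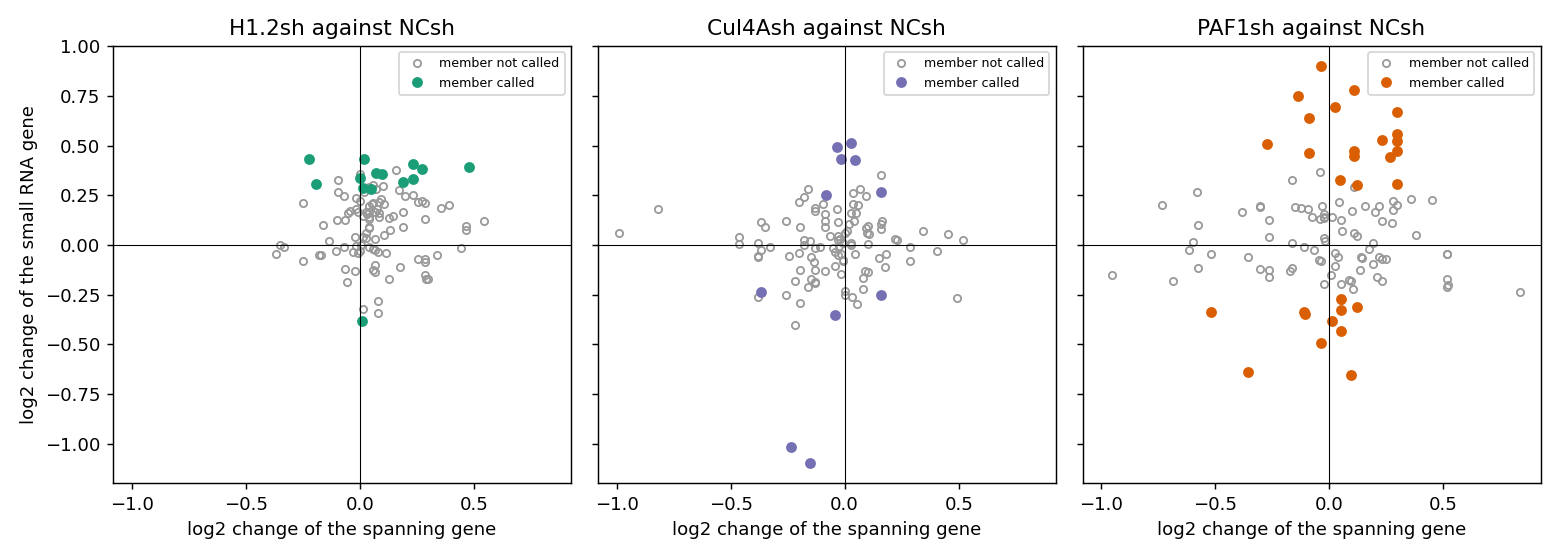
Log2 change of each of the 113 small RNA genes (vertical axis) against that of the gene that spans it (horizontal axis) in the 3 depletions; filled symbols are small RNA genes called at an adjusted p of 0.05. The points show no visible slope, and the 2 lowest points in Cul4Ash are SNORA12 and SNORD17.

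Genes whose products make, trim or bind these RNAs were also measured. Their counts stand beside the shares of all genes given above, in PAF1sh 19% higher, 19.9% lower and 38.9% in either direction, in Cul4Ash 11%, 9.6% and 20.6%, and in H1.2sh 7.28%, 8.15% and 15.4%, and nothing particular to a list is read from them. Of 13 Integrator genes, whose complex cleaves the ends of small nuclear RNAs made by RNA polymerase II, 6 rose and 3 fell in PAF1sh, with INTS5 at 0.65 ± 0.09 and INTS3 at -1.09 ± 0.09, and none was called in H1.2sh or Cul4Ash (0 of 13; 1 and 3 at an unadjusted p under 0.05). Of 5 genes of the SNAPc complex, which binds small nuclear RNA promoters, SNAPC5 rose in all 3 depletions (0.51 ± 0.09 in Cul4Ash, 0.40 ± 0.09 in PAF1sh, 0.35 ± 0.09 in H1.2sh), and SNAPC2 and SNAPC4 rose in H1.2sh. The H1.2sh calls of SNAPC4 and SNAPC5 were lost under either other scaling. Of 22 genes of RNA polymerase III and its factors 5 rose and 4 fell in PAF1sh, and 0 rose and 4 fell in Cul4Ash, POLR3B falling in both (-0.63 ± 0.07 and -0.75 ± 0.07).

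For the 7SK particle and P-TEFb, 3 of 7 genes rose in PAF1sh: LARP7, whose protein binds and stabilises 7SK RNA (0.62 ± 0.11), CDK9, the kinase of P-TEFb (0.28 ± 0.07), and CCNT2, a cyclin partner of it (0.22 ± 0.07). LARP7 also rose in Cul4Ash (0.59 ± 0.11). RN7SK was called higher there too, but that call was lost under both other scalings, and its dimmer probe gave 0.03 ± 0.08. Of 6 H/ACA protein genes 2 fell and 0 rose in PAF1sh, DKC1, which encodes the pseudouridine synthase (-0.62 ± 0.08), and NHP2 (-0.35 ± 0.07). Of 8 box C/D protein genes 1 fell, RUVBL1, whose product helps to assemble the particle (-0.42 ± 0.09). In Cul4Ash NHP2 and RUVBL2 rose (0.40 ± 0.07 and 0.28 ± 0.09) and NAF1, an H/ACA assembly factor, fell (-0.33 ± 0.09).

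Of 6 signal recognition particle protein genes 3 fell in PAF1sh, SRP72 by 0.61 ± 0.10, SRP14 by 0.37 ± 0.09 and SRP68 by 0.32 ± 0.09, while their RNA, RN7SL1, was not called. RO60, whose protein binds Y RNAs, fell by 0.41 ± 0.09 in PAF1sh. Of 17 genes of the nuclear exosome and small RNA trimming 3 rose and 3 fell in PAF1sh, 4 rose and 3 fell in Cul4Ash, and 2 rose and 0 fell in H1.2sh, with TOE1, a nuclease that trims small nuclear RNA ends, at 0.60 ± 0.08 in H1.2sh and 0.32 ± 0.08 in Cul4Ash. Of 20 genes of Sm, SMN and U snRNP proteins 3 rose and 4 fell in PAF1sh, and the largest change was that of GEMIN8, a subunit of the SMN complex, in H1.2sh (-0.95 ± 0.09). Of 5 Cajal body genes 2 rose in PAF1sh and 2 in H1.2sh, NOLC1 and WRAP53 in each case. Among 15 non-coding and similar host genes SNHG9 rose in all 3 depletions, by 0.79 ± 0.07 in Cul4Ash, 0.60 ± 0.07 in H1.2sh and 0.53 ± 0.07 in PAF1sh. Among all list and spanning genes, the direction of every called change was the same under median scaling and without normalization, and the call held under both for 43 of 76 genes in PAF1sh, 19 of 35 in Cul4Ash and 9 of 30 in H1.2sh. Of the genes named with values here or as spanning genes, the call was lost under at least 1 of these scalings for CDK9, CCNT2, NOLC1, WRAP53, SNHG12 and KHDC4 in PAF1sh, for NHP2, RUVBL2, NAF1 and TOE1 in Cul4Ash, and for SNAPC4, SNAPC5, NOLC1, WRAP53 and RPL13 in H1.2sh.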

How the data were processed

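Total RNA of 293T cells was isolated with TRIzol and turned into biotinylated cRNA with an Ambion MessageAmp kit, per the labels' protocols. The authors' deposited matrix gives a linear intensity per probe for 8 arrays, and their deposited scanner table gives signals, also intensities, and a detection p-value per probe. The software behind both is not given in the sources used here. Of the scanner columns, 4 with per-sample values were not used: 2 are empty and 2 hold signals whose name disagrees with the matrix.

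Matrix intensities were log2 transformed and quantile normalized. Probes with a detection p under 0.05 on at least 2 of 7 scanner arrays were kept (22131 of 47220), and the brightest kept probe stood for a gene. Symbols came from GEO's platform annotation; all 325 small RNA symbols matched RefSeq (GRCh38.p14). No coordinates or sequences are given. limma 3.58.1 (R 4.3.3) fitted 4 group means over 8 arrays (lmFit, eBayes), with 4 residual and 6.19 prior degrees of freedom and Benjamini-Hochberg adjustment over 12300 genes. The fit was tested on simulated data. A gene not detected on any array of a group with an undisputed detection p got a bound in place of a fold. The bounds of RNU4-2 and RNY4 were added after the data were seen; the other printed bounds are the same with that floor.

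The members, gene lists and tests were chosen with earlier results of these data known, and the split by promoter after their values were seen. Genes were named by this rule: called members, up to 30 by size of change; the brightest of each class; members detected on every scanner array; up to 4 called genes per list and comparison; the targets; and hosts of named members. RNU2-1, RNU5D-1, SNAR-I, the vault genes and SNORD114-2 were named after their values were seen. Alternatives were 2 other scalings, 3 other filters, every probe on its own, neqc on 5 scanner arrays and matrix values of the same arrays, a replicate block, a variance trend, and each array left out.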

Additional observations from a re-analysis of the deposited data

How the results depend on the processing

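None of the 98 changes called against NCsh reversed under an alternative that gave it a value (0 reversed); 85 had one with detection on every array, 97 with a detection p under 0.01, and all 98 under the other 16. In PAF1sh 43 of 48 calls remained under median scaling and 43 without normalization, in Cul4Ash 20 and 18 of 27, in H1.2sh 3 and 2 of 23; other genes may have been gained. The numbers of small RNA genes higher and lower in H1.2sh (20 and 3) became 1 and 5 with median scaling, 0 and 5 without normalization, 8 and 0 without a filter and 3 and 1 with the matrix values of 5 arrays, and 5 were lower with detection on every array or a detection p under 0.01. In Cul4Ash (16 and 11) they became 10 and 7 without a filter, and 10 were higher with the 5 arrays, as were 5 of the genes with a promoter of their own. With neqc limma called 0 small RNA genes in H1.2sh and 0 in Cul4Ash (47 and 46 at an unadjusted p under 0.05) and in PAF1sh 24 higher and 4 lower; fewer arrays entered that fit. Over all genes it called 0, 0 and 2011; the 5 arrays gave 690 for H1.2sh and 1295 for Cul4Ash, no filter 1035 and 1581, and no normalization 1365 for Cul4Ash.

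The small RNA genes called between H1.2sh and Cul4Ash (38) were 22 with median scaling, 24 without normalization, 13 with the 5 arrays and 0 with neqc, where the other comparisons with PAF1sh gave 26 (Cul4Ash; 38 with the 5 arrays) and 19 (H1.2sh). The median change in H1.2sh (0.10) was 0.0514 with median scaling, 0.0325 without normalization, 0.0182 without a filter, 0.143 with detection on every array, 0.132 with a detection p under 0.01 and 0.186 with neqc; in Cul4Ash (0.01) it was -0.0284 with median scaling; in PAF1sh (0.08) it was 0.0513 with detection on every array, 0.0170 without a filter and 0.130 with neqc. All-gene medians shifted by at most -0.09, in H1.2sh without normalization.

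Leaving out each array gave 1 to 19 higher and 0 to 5 lower small RNA genes in H1.2sh, 6 to 15 and 6 to 10 in Cul4Ash, and 34 to 37 and 10 to 13 in PAF1sh; 4 to 9 higher genes with their own promoter in Cul4Ash; 733 to 1864, 1314 to 2512 and 3765 to 4750 genes in all; medians of 0.09 to 0.12, -0.01 to 0.02 and 0.06 to 0.10; and 23 to 38, 49 to 65 and 50 to 64 small RNA genes called in H1.2sh against Cul4Ash, H1.2sh against PAF1sh and Cul4Ash against PAF1sh. The lone array of a group was then taken to vary like the others. The deviations of same-numbered arrays had correlations of -0.133 to 0.111. These were taken after quantile normalization with 2 arrays per group. Whether same-numbered arrays share a culture or batch was not tested. With a replicate block, 17 small RNA genes were higher and 3 lower in H1.2sh, 16 and 9 in Cul4Ash and 36 and 14 in PAF1sh. The causes of these shifts were not tested. Dim probes limit the rest: the median small RNA gene lies near background.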
